A study of Mus musculus with 18 samples.

Results

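Cortical thymic epithelial cells (cTEC) of Kat7 knockout (KO) mice were compared with cTEC of wildtype (WT) mice by RNA-seq, gene by gene. The comparison took 6 of the 18 libraries of the series, chosen by their labels: 3 WT libraries from mouse pools 1 to 3 and 3 KO libraries from pools 4 to 6. All mice had the C57BL/6 background, and each library came from cells sorted out of a pool of animals. The same 6 pools also gave libraries of medullary cells with high (mTEChi) or low (mTEClo) surface MHC class II. These entered the filter on low counts and the shared fit, and are used below to show where cTEC differed and where they moved alike. Age, sex, the exons of Kat7 that were deleted and the cells in which they were deleted are not given in the sources used here. KO and WT pools were different mice with no stated dates of sorting or sequencing, so a batch and the genotype cannot be told apart. Of 27179 genes in the count table, 19364 passed the filter on low counts and were tested.

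KAT7, also called HBO1, is a histone acetyltransferase that works in complexes with the scaffolds BRPF1 to BRPF3 or JADE1 to JADE3, together with ING4 or ING5 and MEAF6. It acetylates histone H3 and histone H4 and was named for its binding to the origin recognition complex. Cortical epithelial cells attract T cell progenitors, commit them to the T lineage through Notch, and positively select thymocytes on peptides made by a proteasome and by proteases that few other cells have. The transcription factor FOXN1 drives much of that program. Medullary cells instead display proteins of other organs, in part through AIRE, and include rare cells that resemble tuft, gut, muscle or other peripheral cells.

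Kat7 (chr11:95271853-95310246, mm10) checked the labels. Its level was 83.4, 75.4 and 57.7 CPM in WT pools 1 to 3 and 4.16, 3.24 and 2.26 CPM in KO pools 4 to 6, so the libraries of the genotypes did not overlap (log2 fold change -4.50 with SE 0.26 and adjusted p = 8.43e-11). Library totals were 13300969 to 18338441 counts in WT and 15822957 to 20054360 in KO. At an equal depth of 13300969 reads, KO libraries had 16434 genes with 5 or more reads and WT libraries 17359 (mean of 3 libraries each), with all KO libraries below all WT libraries (exact permutation test, two-sided p = 0.1, the smallest that 3 against 3 allows). With 2 or more reads, the genotypes overlapped, at 17870 to 18167 genes in KO and 17814 to 19101 in WT (exact permutation p = 0.4). Mitochondrial reads were 1.65% ± 0.127 of counts in KO and 1.53% ± 0.406 in WT (exact permutation p = 0.9). Reads of Xist and of the Y-linked gene Uty were present in all 6 libraries, and both genes were higher in KO (log2 fold changes 0.91, adjusted p = 0.0176, and 0.49, adjusted p = 0.00823). The Xist call was lost without WT pool 1 (adjusted p = 0.0793) or KO pool 5 (0.0501). Y-linked genes did not all move alike. Ddx3y also rose (log2 fold change 0.357), a call that was lost in 5 of 11 alternatives. Kdm5d had every KO library below every WT library (log2 fold change -0.301). It did not pass the test and was called in 2 of 11 alternatives. Eif2s3y had a lower mean in KO, with overlapping libraries. What part the sexes of the pooled mice had in any result was not tested.

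Of the 19364 genes, 4321 were higher in KO cTEC (22.3%) and 5168 were lower (26.7%) at an adjusted p below 0.05, so 49% were called. Lower genes outnumbered higher genes by more at larger sizes. With a change of at least 2-fold required as well, 1085 were higher (5.6%) and 3385 lower (17.5%). In 51% of the genes tested the 3 KO libraries did not overlap the 3 WT libraries, and these were split evenly between genes higher and genes lower in KO (25.5% each). The median log2 fold change over all genes tested was -0.02. The counts for gene lists below are read against these shares.

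**Figure D1:**
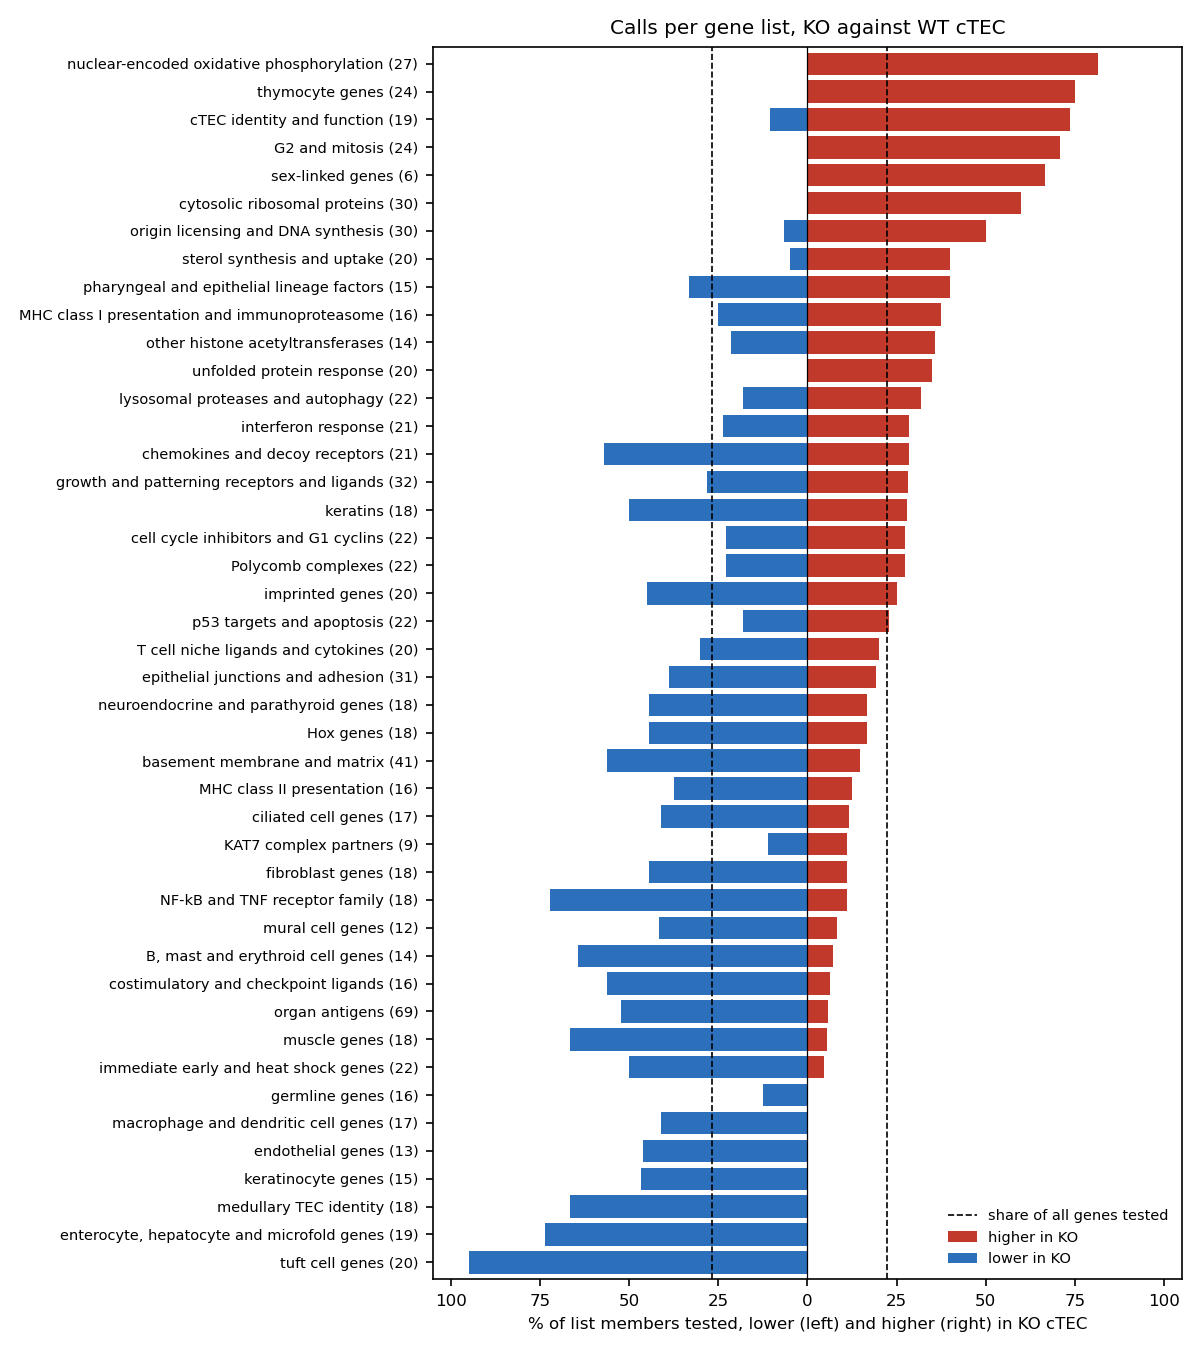
Share of the tested members of each gene list that were lower (blue, to the left) or higher (red, to the right) in KO cTEC at an adjusted p below 0.05, with the number tested in brackets. Dashed lines mark the shares over all genes tested, 26.7% lower and 22.3% higher. Tuft cell genes reach furthest to the left with 19 of 20, and oxidative phosphorylation genes furthest to the right with 22 of 27.

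Genes of cortical identity and function rose in KO cTEC. Of 19 such genes, 14 rose and 2 fell, with a median log2 fold change of 0.78. Some of them were about as high in WT mTEChi as in WT cTEC, so their level did not set cTEC apart from mTEChi. The WT means in mTEChi and cTEC were 1058.2 and 817.8 CPM for Ccl25 and 923.8 and 901.2 CPM for Tbata. They were 19.98 and 20.27 CPM for Dll4 and 111.5 and 120.3 CPM for Foxn1. Others were far lower in WT mTEChi, among them Psmb11 (20.8 and 232.4 CPM). The summed level of the list was 5026.2 CPM in WT mTEChi and 11711.9 CPM in WT cTEC. Psmb11, the catalytic subunit that marks the thymoproteasome, was at 278, 277 and 142 CPM in WT pools 1 to 3 and 917, 607 and 429 CPM in KO pools 4 to 6 (log2 fold change 1.49 with SE 0.26 and adjusted p = 0.000111). Every KO library was above every WT library, although KO pool 4 was far above the other KO pools and WT pool 3 far below the other WT pools. Foxn1, the transcription factor above, was at 129.5, 131 and 100.6 CPM in the WT pools and 351, 309 and 261 CPM in the KO pools (log2 fold change 1.35 with SE 0.17 and adjusted p = 1.9e-06), again without overlap. Prss16, a serine protease of the thymic cortex that makes peptides for MHC class II, was at 1028, 857 and 554 CPM in the WT pools and 2867, 1713 and 1654 CPM in the KO pools (log2 fold change 1.35 with SE 0.22 and adjusted p = 4e-05). Enpep, an aminopeptidase on the cortical cell surface, was at 110.2, 117 and 77.2 CPM in the WT pools and 288, 299 and 335 CPM in the KO pools (log2 fold change 1.60 with SE 0.14 and adjusted p = 1.87e-08). In Enpep the 3 KO libraries lay close together and well above WT.

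The chemokines of the cortex moved the same way. Ccl25, which draws progenitors into the thymus, was at 945, 949.5 and 559 CPM in the WT pools and 2579.7, 1579 and 1443 CPM in the KO pools (log2 fold change 1.19 with SE 0.19 and adjusted p = 4.2e-05). Cxcl12, the ligand of CXCR4 on immature thymocytes, was at 661, 779 and 559.7 CPM in the WT pools and 1516, 1351 and 1186 CPM in the KO pools (log2 fold change 1.02 with SE 0.12 and adjusted p = 1.09e-06). Neither overlapped between genotypes. Kitl, the stem cell factor that supports progenitors, had the largest rise of the list, from 33.5 ± 10.1 CPM in WT to 117 ± 10.5 CPM in KO (log2 fold change 1.80 with SE 0.18 and adjusted p = 9.35e-08). Pax1 and Pax9, transcription factors of the pharyngeal pouch from which the thymus arises, rose by less (log2 fold changes 0.78 and 0.64, adjusted p = 1.04e-05 and 0.000106). The endocytic receptor gene Ly75, the keratin genes Krt8 and Krt18 and the thymic gene Tbata rose, with log2 fold changes of 0.81, 0.38, 0.49 and 0.63 (adjusted p = 0.00164, 0.0167, 0.00151 and 0.00494). The Tbata call was lost without KO pool 4 (0.31, adjusted p = 0.0761) and the Krt8 call without WT pool 2 (0.29, adjusted p = 0.0823) and where only the 6 cTEC libraries were fitted (0.34, adjusted p = 0.0563).

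Dll4, the Notch ligand that commits progenitors to the T lineage, was at 27.8, 16.6 and 16.5 CPM in the WT pools and 44.2, 33.6 and 28.7 CPM in the KO pools (log2 fold change 0.81 with SE 0.30 and adjusted p = 0.0326). Its libraries did not overlap, but KO pool 6 and WT pool 1 were almost equal, and the call was lost in 6 of 11 alternatives, among them those without WT pool 2 or 3 or KO pool 4 or 5. Il7, the cytokine that early thymocytes need, went the other way, with 303, 413 and 309 CPM in the WT pools and 217, 193 and 185 CPM in the KO pools (log2 fold change -0.79 with SE 0.12 and adjusted p = 2.44e-05). Ackr4, a scavenging receptor for CCL19, CCL21 and CCL25, also fell (log2 fold change -0.42 with SE 0.13 and adjusted p = 0.0131), a call that was lost without WT pool 2 (-0.34, adjusted p = 0.0622). Cd83, Ctsl and Slc46a2 did not pass the test, with log2 fold changes of 0.53, 0.42 and -0.26. They were called in 1, 2 and 3 of 11 alternatives. In bulk libraries, more cells of a type and more RNA per cell cannot be told apart.

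**Figure D2:**
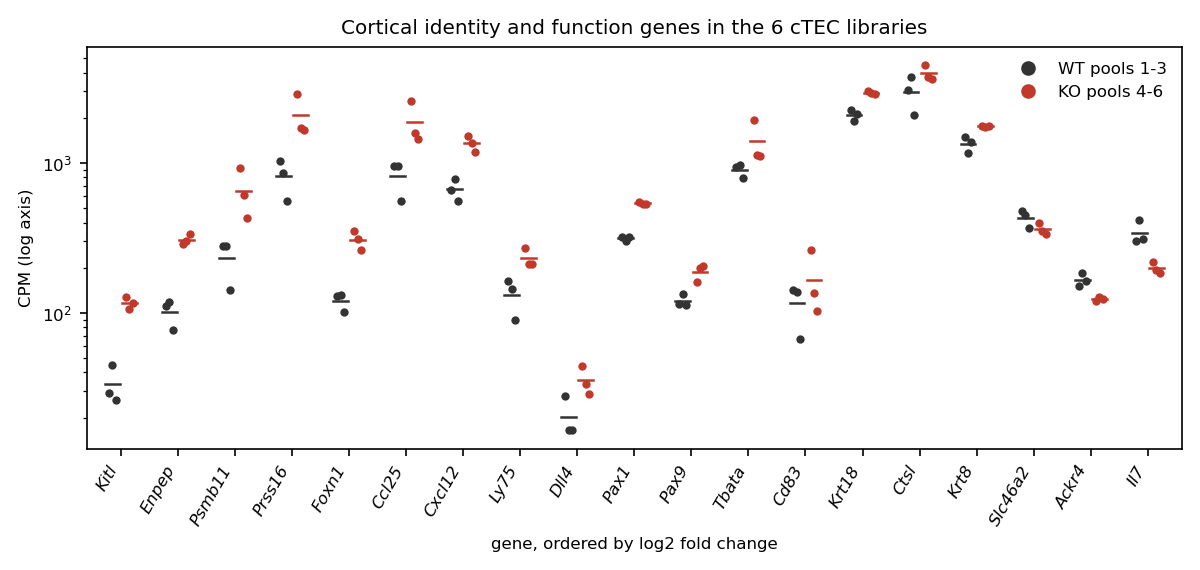
Level in CPM (log axis) of the 19 cortical identity and function genes in each cTEC library, WT in black and KO in red, with a line at the mean of 3 libraries. From Kitl on the left to Krt8, most genes have every red point above every black point, and at the right end Ackr4 and Il7 have them below.

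The promoters of Psmb11 and Foxn1 are shown as those of a product and of a regulator among the cortical genes that rose. Both are RefSeq promoters of GRCm38.p6, from 250 bases before to 50 bases after the start, read 5′ to 3′ on the gene's strand, with CG dinucleotides in capitals. Psmb11 is at chr14:54625060-54625359, plus strand, and Foxn1 at chr11:78386559-78386858, minus strand. Psmb11 holds 4 CG dinucleotides and Foxn1 holds 8, where the median over 18011 promoters of tested genes was 17 and the middle range 6 to 26. Neither holds TATAAA on either strand, which 9.54% of those promoters do.
Psmb11: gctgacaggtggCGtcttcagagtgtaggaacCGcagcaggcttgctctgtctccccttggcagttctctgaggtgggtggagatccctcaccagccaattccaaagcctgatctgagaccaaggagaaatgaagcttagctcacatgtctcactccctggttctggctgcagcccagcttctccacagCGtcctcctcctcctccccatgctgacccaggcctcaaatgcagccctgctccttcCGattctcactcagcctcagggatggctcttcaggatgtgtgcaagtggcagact
Foxn1: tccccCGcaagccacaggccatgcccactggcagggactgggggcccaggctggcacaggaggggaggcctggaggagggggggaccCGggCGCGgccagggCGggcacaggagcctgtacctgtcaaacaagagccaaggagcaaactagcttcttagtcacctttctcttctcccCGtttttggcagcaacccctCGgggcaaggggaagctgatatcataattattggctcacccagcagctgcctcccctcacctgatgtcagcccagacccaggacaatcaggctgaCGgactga

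Of the 19 cortical genes, 15 rose and 2 fell in KO mTEChi (all genes tested: 17.1% higher, 19.3% lower, 36.4% in all), and 14 rose and 2 fell in KO mTEClo (18.9% higher, 15.8% lower, 34.7% in all). The subsets share mouse pools but no library. The genotype effect in cTEC differed from that in both mTEC subsets in the same direction in 2 of the 19 genes, with 1 in each direction (all genes tested: 5.07% higher in cTEC, 10.6% lower). The summed level of the list was 11712 ± 1622 CPM in the WT cTEC libraries and 18549.9 ± 2873 CPM in KO cTEC.

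Among 20 ligands and cytokines of the T cell niche, 4 rose, 6 fell and 10 did not pass the test (median log2 fold change -0.13). Beside Kitl and Dll4, Igf1, a growth factor, rose from 32.2, 42.4 and 46.4 CPM in WT to 97.0, 89.0 and 84.0 CPM in KO (adjusted p = 1.31e-05). Wnt4, a Wnt ligand that maintains Foxn1 expression, rose from 286, 308 and 261 to 515, 567 and 496 CPM (adjusted p = 2.26e-06). Bmp2, a bone morphogenetic protein, fell furthest, from 32.5, 19.9 and 31.5 to 4.09, 1.62 and 1.74 CPM (log2 fold change -3.50 with SE 0.29 and adjusted p = 6.82e-09). In all 3 genes the KO libraries stood apart from WT. The Notch ligand gene Dll1, the growth factor genes Flt3l and Bmp7 and the interleukin 15 receptor gene Il15ra fell, with log2 fold changes of -0.58, -0.61, -0.48 and -0.81 (adjusted p = 0.00393, 0.00743, 0.00634 and 0.000216). Il15, Il33, Jag1, Jag2, Bmp4, Igf2, Il6, Tslp, Vegfa and Wnt5a did not pass, with log2 fold changes from -0.45 (Igf2) to 0.94 (Il6). Jag1 was called in 3 of 11 alternatives.

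Of 16 genes of MHC class II presentation, 6 fell, 2 rose and 8 did not pass the test (median -0.14), where 26.7% of all genes tested fell. H2-Aa was at 2507, 2795 and 2464 CPM in the WT pools and 2956, 2298 and 2113 CPM in the KO pools, and H2-Ab1 at 6901, 7339.6 and 5726 CPM in the WT pools and 6697, 5927 and 5612 CPM in the KO pools. The genotypes overlapped in both, and the log2 fold changes of -0.08 (SE 0.12) and -0.13 (SE 0.12) did not pass the test. Those of H2-Eb1 (-0.16) and of the invariant chain gene Cd74 (0.20) did not pass either. Nor did those of H2-DMa (0.10) and H2-DMb1 (-0.22), which code for chains of the loading factor H2-M. H2-DMb1 was called in 4 of 11 alternatives. H2-Ob, the beta chain of the H2-O inhibitor of peptide loading, was at 18.8, 19.2 and 23.2 CPM in the WT pools and 1.32, 0.712 and 0.841 CPM in the KO pools (log2 fold change -4.41 with SE 0.23 and adjusted p = 2.73e-11). Its KO libraries were at a small fraction of every WT library. H2-Oa, its partner, fell, with a log2 fold change of -0.87 (adjusted p = 0.000772), and H2-DMb2, another H2-M chain, with one of -1.55 (adjusted p = 5.42e-06). The protease gene Ctss fell from 44.9 ± 4.64 to 14.0 ± 4.06 CPM (adjusted p = 8.39e-08).

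The class II regulators Ciita and Rfx5 fell, with log2 fold changes of -0.59 and -0.82 (adjusted p = 0.00319 and 0.000132). The 2 genes that rose, Rfxank and Ifi30, had log2 fold changes of 0.36 and 0.42 (adjusted p = 0.0203 and 0.026), and their calls were lost in 6 and 7 of 11 alternatives, among them those without WT pool 1 and without KO pool 5. In mTEClo, 11 of the 16 genes fell, H2-Aa and H2-Ab1 among them (log2 fold changes -0.64 and -0.72, adjusted p = 0.000352 and 0.000164).

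Of 16 genes of MHC class I presentation, 6 rose and 4 fell. Tap2, which with Tap1 carries peptides into the endoplasmic reticulum, was at 283, 199.9 and 208 CPM in the WT pools and 73.1, 54.4 and 69.2 CPM in the KO pools (log2 fold change -1.81 with SE 0.14 and adjusted p = 4.36e-09), with no overlap. Tap1 and Nlrc5, the class I transactivator, fell, with log2 fold changes of -0.79 and -0.98 (adjusted p = 7.83e-05 and 8.97e-06). The trimming peptidase gene Erap1 rose, with a log2 fold change of 1.12 and the immunoproteasome subunit gene Psmb8 with one of 0.50 (adjusted p = 1.24e-06 and 0.000662). Among lysosomal and autophagy genes, 7 of 22 rose and 4 fell. Lamp2, a lysosomal membrane protein, was at 633, 811 and 479 CPM in the WT pools and 1758, 1611 and 1780.0 CPM in the KO pools (log2 fold change 1.42 with SE 0.14 and adjusted p = 1.21e-07), and all KO libraries lay above all WT libraries. The cathepsin gene Ctsh fell from 172 ± 38.4 to 33.3 ± 6.11 CPM (adjusted p = 1.07e-09). Map1lc3a fell and Map1lc3b rose, both coding for LC3 proteins of the autophagosome (log2 fold changes -1.55 and 0.97, adjusted p = 4.91e-05 and 1.39e-06).

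Costimulatory and checkpoint ligands mostly fell, with 9 of 16 lower and 1 higher (median -0.80). Pdcd1lg2, which codes for PD-L2, was at 36.8, 49.8 and 30.4 CPM in the WT pools and 2.31, 2.59 and 1.84 CPM in the KO pools (log2 fold change -4.12 with SE 0.21 and adjusted p = 1.81e-11). Cd274, which codes for PD-L1, was at 206, 215 and 173 CPM in the WT pools and 79.3, 74.4 and 56.3 CPM in the KO pools (log2 fold change -1.50 with SE 0.14 and adjusted p = 3.36e-08). Neither had overlapping genotypes. Tnfsf9 and Cd200 fell, with log2 fold changes of -2.95 and -0.97 (adjusted p = 1.24e-08 and 0.000242), and Icosl, the ligand of ICOS, rose from 31.5 ± 1.91 to 65.9 ± 4.46 CPM (adjusted p = 1.11e-06). The number of falling members was 5 where only the 6 cTEC libraries were fitted.

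Of 21 chemokine and decoy receptor genes, 12 fell, 6 rose and 3 did not pass the test (median -1.36). Ccl11, or eotaxin, was at 367, 510.4 and 266 CPM in WT pools 1 to 3 and 3.30, 3.75 and 3.05 CPM in KO pools 4 to 6 (log2 fold change -6.82 with SE 0.32 and adjusted p = 7.47e-12). The KO libraries were almost equal to each other and far under the lowest WT library. Ccl20, the ligand of CCR6 and a gene of microfold cells, was at 520.4, 472 and 362 CPM in the WT pools and 25.9, 13.9 and 8.20 CPM in the KO pools (log2 fold change -4.83 with SE 0.31 and adjusted p = 2.19e-10). Ccl7 and Ccl2, monocyte attractants, were at 54.7, 67.4 and 35.6 CPM in the WT pools and 1.12, 1.49 and 0.578 CPM in the KO pools for Ccl7 (log2 fold change -5.65 with SE 0.32 and adjusted p = 5.23e-11) and 23.9, 21.8 and 9.26 CPM in the WT pools and 0.660, 1.55 and 0.578 CPM in the KO pools for Ccl2 (log2 fold change -4.30 with SE 0.39 and adjusted p = 2.57e-08). Cxcl14 fell from 22.1 ± 6.16 to 0.367 ± 0.281 CPM (adjusted p = 3.23e-09). The genes that rose beside Ccl25 and Cxcl12 were Cxcl10, Cxcl1, Ackr3 and Cxcl16, with log2 fold changes of 0.57, 0.73, 0.68 and 0.29 (adjusted p = 0.00176, 0.0173, 0.00297 and 0.0411).

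The promoter of Ccl20 is shown as that of a strongly lowered chemokine. It lies at chr1:83116516-83116815, plus strand (RefSeq, GRCm38.p6), holds 3 CG dinucleotides, in capitals, and no TATAAA on either strand.
Ccl20: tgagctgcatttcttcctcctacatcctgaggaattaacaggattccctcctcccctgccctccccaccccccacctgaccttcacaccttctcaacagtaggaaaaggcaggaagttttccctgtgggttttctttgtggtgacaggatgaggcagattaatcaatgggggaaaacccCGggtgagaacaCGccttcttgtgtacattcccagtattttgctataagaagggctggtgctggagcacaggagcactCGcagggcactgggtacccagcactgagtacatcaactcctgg

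WT cTEC libraries carried RNA of medullary genes, and KO libraries carried less of it. Of 18 medullary identity genes, 12 fell and none rose (median -0.84). Tnfrsf11b, the decoy receptor osteoprotegerin, was at 163, 115 and 134 CPM in the WT pools and 13.1, 8.998 and 8.47 CPM in the KO pools (log2 fold change -3.76 with SE 0.23 and adjusted p = 1.84e-10). Spib, a transcription factor of medullary cells, was at 362, 214 and 251 CPM in the WT pools and 48.4, 30.8 and 28.3 CPM in the KO pools (log2 fold change -2.94 with SE 0.21 and adjusted p = 9.77e-10). In both of these genes the KO libraries lay far below WT. Tnfrsf11a, or RANK, the receptor that drives medullary maturation, fell from 140.2 ± 10.5 to 62.1 ± 7.01 CPM (adjusted p = 7.15e-08). Cldn4, a tight junction gene of medullary cells, fell from 153 ± 72.0 to 42.5 ± 7.31 CPM (adjusted p = 2.44e-05).

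Aire was at 45.4, 28.3 and 75.8 CPM in the WT pools and 22.4, 17.9 and 11.7 CPM in the KO pools in cTEC (log2 fold change -1.53 with SE 0.34 and adjusted p = 0.000894), against a mean of 1184 CPM in WT mTEChi. The keratin gene Krt14 did not pass the test (1206 ± 53.04 CPM in the WT pools and 1070.2 ± 104.8 CPM in the KO pools, log2 fold change -0.17). The summed level of the 18 genes was 4749 ± 425 CPM in the WT cTEC libraries and 2921 ± 263 CPM in KO cTEC, which is 79.3% and 48.8% of the level in WT mTEClo. The effect was lower in cTEC than in both mTEC subsets for 7 of the 18 genes. Of 18 genes of NF-kB and the TNF receptor family, which includes RANK, 13 fell and 2 rose (median -0.43). Traf1, an adaptor, was at 65.1, 41.4 and 54.8 CPM in the WT pools and 7.33, 8.67 and 7.57 CPM in the KO pools (log2 fold change -2.77 with SE 0.18 and adjusted p = 2.22e-10), and Tnfaip3, or A20, a brake on the pathway, was at 206, 172 and 124 CPM in the WT pools and 47.0, 69.1 and 58.2 CPM in the KO pools (log2 fold change -1.52 with SE 0.17 and adjusted p = 3.13e-07). Both genes had all KO libraries under all WT libraries. Nfkb1 and Ikbkb fell, with log2 fold changes of -0.64 and -0.56 (adjusted p = 8.15e-05 and 0.000345).

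Tuft cell genes fell in KO cTEC while they rose in both KO medullary subsets. Tuft cells are chemosensory epithelial cells, found in the medulla, that use taste signalling and make interleukin 25 and leukotrienes. Of 20 tuft cell genes, 19 fell and none rose in KO cTEC (median -2.44), whereas 16 rose in mTEChi and 14 in mTEClo, with none falling in either (medians 0.96 and 0.99). For 19 of the 20 the effect in cTEC was lower than in both medullary subsets. Avil, an actin-binding protein of tuft cells, was at 441, 163 and 479 CPM in WT pools 1 to 3 and 32.3, 27.6 and 32.3 CPM in KO pools 4 to 6 (log2 fold change -3.55 with SE 0.29 and adjusted p = 7.31e-09). WT pool 2 had the lowest Avil of its genotype and was still above every KO library. Gnat3, or gustducin, the G protein of taste cells, was at 324, 271 and 263 CPM in the WT pools and 37.9, 29.4 and 29.7 CPM in the KO pools (log2 fold change -3.15 with SE 0.17 and adjusted p = 2.73e-11). Chat, which makes acetylcholine, was at 58.2, 25.9 and 39.5 CPM in the WT pools and 2.51, 1.36 and 2.89 CPM in the KO pools (log2 fold change -4.17 with SE 0.28 and adjusted p = 4.06e-10).

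Sh2d6, Alox5ap, the activator of leukotriene synthesis, and Plcb2, the phospholipase of taste signalling, fell, with log2 fold changes of -3.33, -2.93 and -2.75 (adjusted p = 8.04e-11, 4.56e-10 and 4.18e-10). Sox9, which other epithelia also express, was the member that did not fall (290.0 ± 71.4 CPM in the WT pools and 352 ± 54.0 CPM in the KO pools). The defining tuft factor Pou2f3 was at 72.9 ± 16.7 CPM in the WT pools and 18.6 ± 3.63 CPM in the KO pools, and its mean in WT mTEClo was 100 CPM. The summed level of the list was 2219 ± 583 CPM in WT cTEC, or 67.7% of that in WT mTEClo, and 647 ± 44.3 CPM in KO cTEC, or 19.8%. Without WT pool 3 or without KO pool 4, Sox9 was called higher and the other 19 genes still fell.

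**Figure D3:**
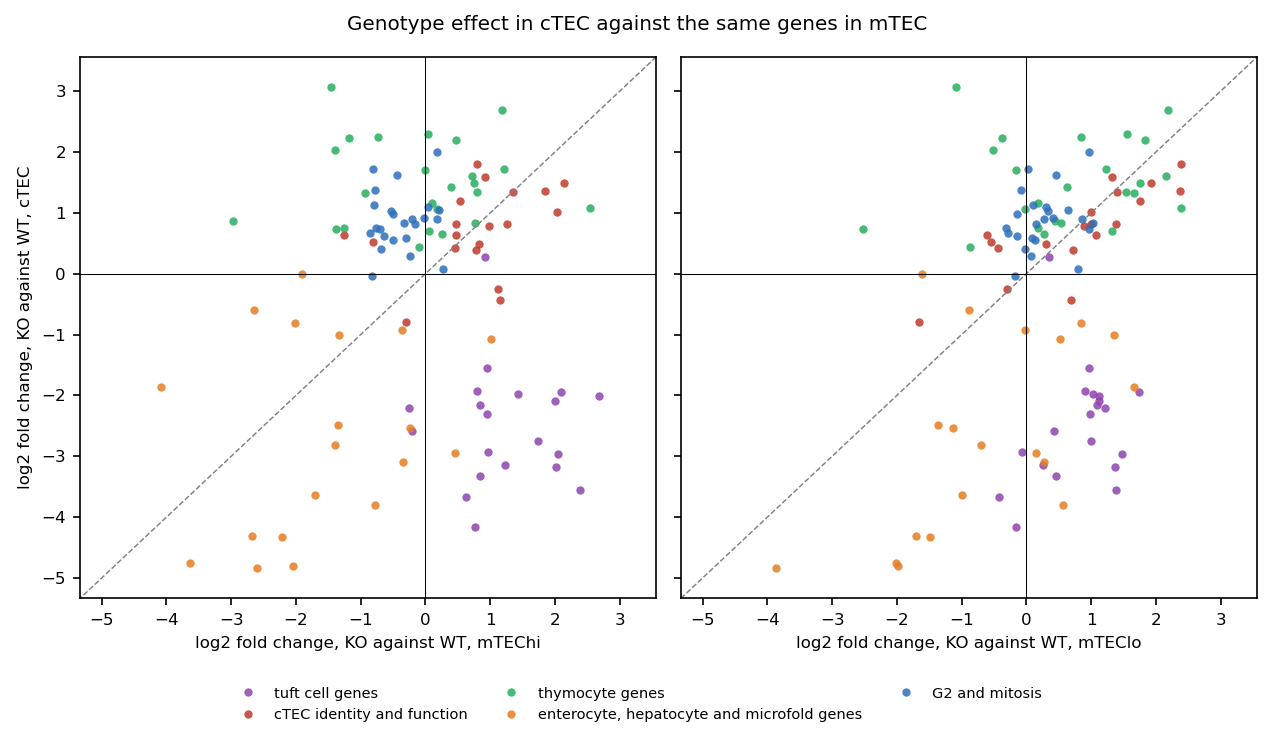
Log2 fold change of KO against WT in cTEC (vertical) against the same in mTEChi (left panel) or mTEClo (right panel) for the members of 5 gene lists, 1 point per gene, with a dashed line where both are equal. Tuft cell genes, apart from Sox9, lie below 0 in cTEC and mostly to the right of 0, cortical genes mostly in the upper right, and G2 and mitosis genes above 0 in cTEC and mostly below 0 in mTEChi.

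The promoter of Avil is shown as that of a tuft cell gene whose effect had opposite signs in cTEC and mTEC. It lies at chr10:127000459-127000758, plus strand (RefSeq, GRCm38.p6), with 2 CG dinucleotides, in capitals, and no TATAAA on either strand.
Avil: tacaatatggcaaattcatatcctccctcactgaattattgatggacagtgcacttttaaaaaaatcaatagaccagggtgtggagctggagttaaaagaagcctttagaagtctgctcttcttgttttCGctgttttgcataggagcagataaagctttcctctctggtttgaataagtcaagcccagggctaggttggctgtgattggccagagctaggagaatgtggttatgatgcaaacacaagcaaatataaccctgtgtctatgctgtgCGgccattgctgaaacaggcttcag

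Genes of other cell types that medullary cells resemble were counted next. Of 19 genes of enterocytes, hepatocytes and microfold cells, 14 fell and none rose (median -2.82). Reg3g, an antimicrobial lectin of the gut, was at 2365, 1429 and 2208 CPM in the WT pools and 90.1, 82.2 and 50.9 CPM in the KO pools (log2 fold change -4.75 with SE 0.31 and adjusted p = 2.79e-10), the group of WT libraries standing far above KO, though reads of the Reg family can be shared between its members. Apoa4, a lipid carrier of enterocytes, fell from 49.96 ± 16.5 to 1.77 ± 0.916 CPM (adjusted p = 6.03e-10). The chemokine Ccl9 of microfold cells fell from 116 ± 11.2 to 20.05 ± 2.03 CPM (adjusted p = 4.48e-11). Of 18 muscle genes, 12 fell and 1 rose (median -1.76), or 5 fell where only the cTEC libraries were fitted. Myog, the myogenic factor myogenin, was at 16.0, 15.6 and 10.1 CPM in the WT pools and 0.264, 0.324 and 0.210 CPM in the KO pools (log2 fold change -5.67 with SE 0.32 and adjusted p = 4.99e-11), and titin, Ttn, fell from 55.2 ± 9.81 to 7.12 ± 3.55 CPM (adjusted p = 2.1e-08). Of 17 ciliated cell genes, 7 fell and 2 rose, or 1 rose in 8 of 11 alternatives. Of 15 keratinocyte genes, 7 fell and none rose, or 4 fell and 2 rose without WT pool 1.

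Antigens of other organs were lower in KO cTEC in 36 of 69 genes tested, out of 80 listed, and higher in 4. The median log2 fold change was -1.95, or -1.76 with genes at 0 reads set to their bound. Where only the 6 cTEC libraries were fitted, 22 fell, a count without the members that the filter on those libraries removed. Bpifa1, a secreted protein of the airway, was at 1486, 1079 and 1425 CPM in the WT pools and 30.0, 35.0 and 63.4 CPM in the KO pools (log2 fold change -4.95 with SE 0.40 and adjusted p = 6.74e-09). Csn2, or beta casein of milk, was at 115, 95.2 and 95.7 CPM in the WT pools and 10.96, 3.69 and 4.21 CPM in the KO pools (log2 fold change -4.03 with SE 0.28 and adjusted p = 7.02e-10), and Mag, a myelin protein, was at 15.4, 10.3 and 14.3 CPM in the WT pools and 0.528, 0.129 and 0.158 CPM in the KO pools (log2 fold change -5.60 with SE 0.46 and adjusted p = 7.03e-09). No KO library reached a WT library in these 3 genes. Cryba2, a lens crystallin, went up instead, from 6.19, 5.15 and 6.44 to 79.7, 99.95 and 56.9 CPM (adjusted p = 1.37e-10). The summed level of the antigen list was 3842 ± 746 CPM in the WT cTEC libraries and 503 ± 11.8 CPM in KO cTEC, against 6030.4 ± 508 CPM in WT mTEChi. The medullary and tuft lists fell with it, as given above, and their part in the lower antigen level was not tested.

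Neuroendocrine and parathyroid genes fell in 8 of 18 cases and rose in 3. The parathyroid hormone gene Pth was at 22.4, 0.212 and 1.17 CPM in WT pools 1 to 3 and 482, 1516 and 830.2 CPM in KO pools 4 to 6 (log2 fold change 6.99 with SE 0.92 and adjusted p = 3.6e-06), and Chga, or chromogranin A, a protein of secretory granules, was at 71.5, 20.1 and 28.1 CPM in the WT pools and 351, 1353 and 748 CPM in the KO pools (log2 fold change 4.37 with SE 0.46 and adjusted p = 2.06e-07). All KO libraries exceeded all WT libraries in both genes, and both varied widely within each genotype. WT pool 1 gave most of the WT level of Pth, and without it the log2 fold changes were 10.39 for Pth and 5.08 for Chga. Syt1, Scg5 and Resp18, genes of neuroendocrine vesicles, fell, with log2 fold changes of -1.76, -2.33 and -3.48 (adjusted p = 2.52e-08, 3.74e-08 and 1.66e-06), and Resp18 with one of -2.64 without WT pool 3.

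Thymocyte genes were higher in the KO cTEC libraries. Of 24 thymocyte genes, 18 rose and none fell (median 1.38), and in 20 of them the KO libraries were all above WT. Cd8b1, a chain of the CD8 coreceptor, was at 9.68, 10.2 and 2.61 CPM in the WT pools and 67.2, 37.9 and 40.6 CPM in the KO pools (log2 fold change 2.70 with SE 0.36 and adjusted p = 5.21e-06). Ptprc, or CD45, which all white blood cells carry, was at 10.3, 11.1 and 7.03 CPM in the WT pools and 36.6, 28.3 and 22.0 CPM in the KO pools (log2 fold change 1.61 with SE 0.20 and adjusted p = 1.66e-06). Lck, the kinase that binds CD4 and CD8, rose from 39.6 ± 10.1 to 88.7 ± 19.5 CPM (adjusted p = 2.12e-05). The summed level of the list was 167 to 312 CPM in WT and 512 to 792 CPM in KO. In KO mTEChi 4 of the 24 rose and 5 fell, and in KO mTEClo 5 rose and 2 fell.

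Genes of other non-epithelial cells were counted too. Of 17 macrophage and dendritic cell genes, 7 fell and none rose (median -0.02). Lyz2, lysozyme, fell from 152 ± 43.0 to 27.8 ± 5.02 CPM and Ccr7 from 38.5 ± 6.88 to 3.40 ± 0.269 CPM (adjusted p = 6.74e-10 and 2.3e-10), while the macrophage genes C1qa, C1qb and C1qc were under 2 CPM in both genotypes and did not pass. Of 13 endothelial genes, 6 fell, Tek furthest among the called genes above 5 CPM in WT (24.4 ± 9.61 CPM in the WT pools and 3.77 ± 0.258 CPM in the KO pools). Of 14 genes of B, mast and red blood cells, 9 fell and 1 rose, or none rose in 7 of 11 alternatives. Of 12 mural cell genes, 5 fell and 1 rose. Of 18 fibroblast genes, 8 fell, among them the collagen gene Col3a1, at 270.3, 91.6 and 106 CPM in the WT pools and 11.6, 12.6 and 12.04 CPM in the KO pools (log2 fold change -3.69 with SE 0.34 and adjusted p = 3.83e-08), and 2 rose (5 with mouse pool as a block, and 4 without WT pool 2), led by decorin, Dcn, at 549.5, 722 and 562 CPM in the WT pools and 2064, 1950.5 and 2145 CPM in the KO pools (log2 fold change 1.75 with SE 0.13 and adjusted p = 1.95e-09). The genotypes did not overlap in either gene, and without WT pool 1 the log2 fold change of Col3a1 was -3.03. Summed over the fibroblast list, of which Dcn made up most, WT libraries had 907 ± 120.0 CPM and KO libraries had 2153 ± 97.5 CPM, with no overlap. The sums of 3 lists were lower in all KO libraries than in all WT libraries. They were the macrophage and dendritic cell list (332 ± 31.4 and 118 ± 6.78 CPM), the endothelial list (70.6 ± 11.9 and 29.9 ± 3.88 CPM) and the mural list (739.6 ± 14.9 and 537 ± 28.5 CPM). Single genes weigh on such sums. Acta2 of the mural list rose from 241 ± 18.7 to 363 ± 24.7 CPM and made up most of the KO sum. Lyz2 made up much of the WT macrophage and dendritic cell sum, and its mean was 1447 CPM in WT mTEChi.

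Genes of cell division rose in KO cTEC. Of 24 genes of G2 and mitosis, 17 rose and none fell (median 0.87), or 11 without WT pool 1 or without KO pool 4. Ccnb1, the mitotic cyclin B1, was at 3.13, 4.30 and 2.77 CPM in the WT pools and 17.1, 13.9 and 10.1 CPM in the KO pools (log2 fold change 2.00 with SE 0.23 and adjusted p = 5.82e-07). Ube2c, which marks mitotic cyclins for destruction, was at 4.08, 8.33 and 4.95 CPM in the WT pools and 23.1, 18.7 and 16.1 CPM in the KO pools (log2 fold change 1.72 with SE 0.24 and adjusted p = 7.37e-06). Both had all KO libraries above WT. Mki67, a general marker of cycling cells, did not pass the test (18.7 ± 4.13 CPM in the WT pools and 18.4 ± 5.26 CPM in the KO pools, log2 fold change -0.03, SE 0.20). In mTEChi none of the 24 rose and 7 fell, and the effect was higher in cTEC than in both medullary subsets for 6.

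Of 30 genes of origin licensing and DNA synthesis, a process in which KAT7 has a known part, 15 rose and 2 fell (median 0.49), or none fell without WT pool 1. Rrm1, a subunit of ribonucleotide reductase, was at 51.9, 71.3 and 26.1 CPM in the WT pools and 179, 216 and 243 CPM in the KO pools (log2 fold change 2.10 with SE 0.24 and adjusted p = 5.05e-07), with WT pool 3 lowest. The helicase genes Mcm4 and Mcm6 rose, with log2 fold changes of 1.16 and 0.87, and the origin recognition genes Orc6 and Orc2 with 0.92 and 0.69 (adjusted p = 9.26e-06, 1.33e-05, 6.25e-05 and 0.000126). Of 22 cell cycle inhibitors, G1 cyclins and their kinases, 6 rose and 5 fell. The kinase genes Cdk4 and Cdk6 rose, with log2 fold changes of 0.93 and 0.97, and the inhibitor genes Cdkn1c and Cdkn2b fell, with log2 fold changes of -2.58 and -0.71 (adjusted p = 2.82e-06, 0.000781, 6.86e-09 and 0.000219). Thymocytes, whose genes rose in the same libraries, also divide, and their part in these counts was not tested.

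Ribosomal and respiratory chain genes rose together. Of 30 genes of cytosolic ribosomal proteins, 18 rose and none fell (median 0.58), or 11 without WT pool 1. Their summed level was 1578 to 2378 CPM in WT and 3380.1 to 3392 CPM in KO, so that the KO libraries agreed closely while WT pools varied. Rplp0, of the large subunit, was at 180.3, 201 and 222 CPM in the WT pools and 385, 374 and 370.4 CPM in the KO pools (log2 fold change 0.91 with SE 0.10 and adjusted p = 3.36e-07). In KO mTEChi and mTEClo 12 and 11 of the 30 fell and none rose, and for 19 the effect in cTEC was higher than in both. Of 27 nuclear genes of oxidative phosphorylation, 22 rose and none fell (median 0.69). Atp5o, of ATP synthase, was at 91.5, 98.2 and 110.4 CPM in the WT pools and 233, 198 and 194 CPM in the KO pools (log2 fold change 1.06 with SE 0.14 and adjusted p = 4.53e-06), and Sdhb, Uqcrc2 and Cyc1, of complexes upstream, rose, with log2 fold changes of 0.81, 0.74 and 0.72. The part of thymocyte RNA in either list was not tested.

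**Figure D4:**
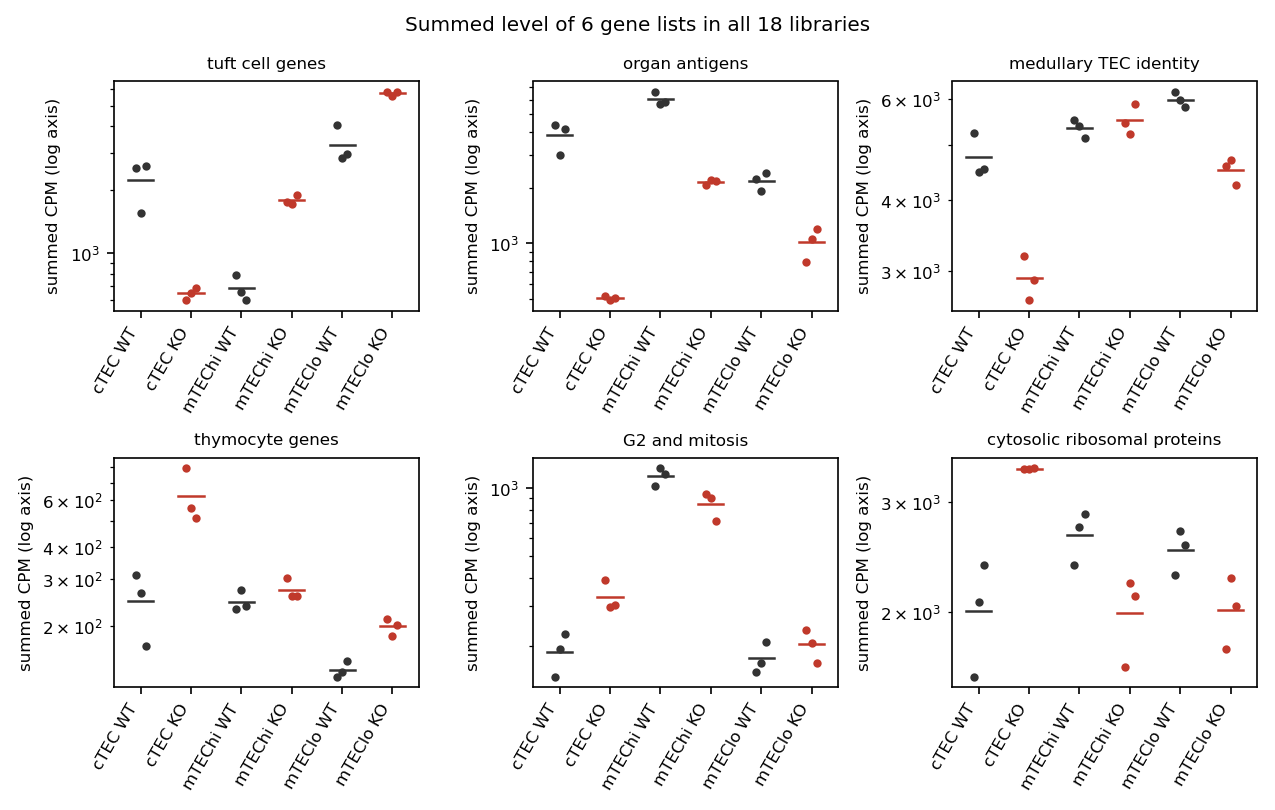
Summed CPM (log axis) of 6 gene lists in each of the 18 libraries, WT in black and KO in red, with a line at the mean of 3 libraries. In cTEC, the tuft, organ antigen and medullary sums are lower in all KO libraries, and the thymocyte, mitosis and ribosomal sums are higher in all KO libraries.

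Genes of the basement membrane and matrix fell in 23 of 41 cases and rose in 6 (median -0.64). Thbs1, or thrombospondin, was at 244, 165 and 221 CPM in the WT pools and 19.5, 23.9 and 24.1 CPM in the KO pools (log2 fold change -3.22 with SE 0.18 and adjusted p = 5.69e-11). Col6a1 and Col6a2, chains of collagen VI, were at 417 ± 57.1 CPM in the WT pools and 88.5 ± 4.50 CPM in the KO pools for Col6a1 and 270.1 ± 38.6 CPM in the WT pools and 55.9 ± 5.50 CPM in the KO pools for Col6a2 (adjusted p = 4.08e-10 and 1.2e-09), and in KO mTEChi both rose (log2 fold changes 1.10 and 0.70, adjusted p = 2.48e-05 and 0.00516), while in KO mTEClo both fell (log2 fold changes -1.13 and -1.33, adjusted p = 4.84e-06 and 2.39e-06). Lama4, a laminin chain, fell from 45.2 ± 9.11 to 8.63 ± 1.42 CPM (adjusted p = 1.16e-09). The genes that rose were Sparc, Col12a1, Fbln1, Dcn, Ogn and Cnmd. Cnmd, or chondromodulin, was at 8.37, 9.44 and 6.71 CPM in WT pools 1 to 3 and 433, 419 and 332 CPM in KO pools 4 to 6 (log2 fold change 5.59 with SE 0.19 and adjusted p = 1.55e-13). The 3 WT libraries were close to each other, as were the 3 KO libraries, and the groups were far apart.

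The Cnmd promoter is shown as that of the gene with the smallest adjusted p among the 12 most raised. It lies at chr14:79662134-79662433, minus strand (RefSeq, GRCm38.p6) and holds 1 CG dinucleotide, in capitals. Only 1.68% of promoters hold fewer.
Cnmd: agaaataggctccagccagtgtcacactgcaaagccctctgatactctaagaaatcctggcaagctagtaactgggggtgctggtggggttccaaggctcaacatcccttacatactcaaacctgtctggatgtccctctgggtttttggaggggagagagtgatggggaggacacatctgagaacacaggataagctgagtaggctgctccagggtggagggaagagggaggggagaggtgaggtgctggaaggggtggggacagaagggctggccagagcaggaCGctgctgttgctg

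Junction and adhesion genes fell in 12 of 31 cases and rose in 6, whereas in mTEChi 16 rose and 1 fell, and for 11 the effect was lower in cTEC than in both medullary subsets. Cdh2, or N-cadherin, was at 25.8, 29.0 and 28.5 CPM in the WT pools and 2.77, 3.56 and 3.47 CPM in the KO pools (log2 fold change -3.08 with SE 0.21 and adjusted p = 6.03e-10), and Cldn8, a tight junction gene, was at 18.6, 15.4 and 7.35 CPM in the WT pools and 52.5, 72.1 and 65.0 CPM in the KO pools (log2 fold change 2.20 with SE 0.25 and adjusted p = 5.44e-07). These genes moved apart without overlap in opposite directions. Of 18 keratin genes, 9 fell and 5 rose, or 5 fell without WT pool 1. Krt20, a keratin of gut epithelium, fell from 97.8 ± 31.6 to 3.03 ± 0.869 CPM (adjusted p = 3.44e-11), and Krt15, of basal epithelial cells, rose from 39.6 ± 27.6 to 159 ± 24.1 CPM (adjusted p = 2.15e-05), by a log2 fold change of 2.01 that was 2.74 without WT pool 1.

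Receptors and ligands of growth and patterning were balanced, with 9 of 32 higher and 9 lower (median -0.10). The fibroblast growth factor receptors went in opposite directions: Fgfr1 was at 15.2, 13.4 and 20.6 CPM in the WT pools and 74.5, 83.4 and 87.4 CPM in the KO pools (log2 fold change 2.31 with SE 0.21 and adjusted p = 2.57e-08), and Fgfr2, through which FGF7 and FGF10 act on thymic epithelium, was at 303, 334 and 272 CPM in the WT pools and 178, 181 and 182 CPM in the KO pools (log2 fold change -0.75 with SE 0.10 and adjusted p = 5.21e-06). The libraries of the genotypes did not overlap in either. Met, the receptor of hepatocyte growth factor, rose, with a log2 fold change of 1.06, and Lifr and Notch2 fell, with log2 fold changes of -1.32 and -0.97 (adjusted p = 2.72e-06, 3.16e-07 and 8.78e-07). Of 15 pharyngeal and epithelial lineage factors, 6 rose and 5 fell. Plet1, a surface protein of thymic epithelial progenitors, was at 71.0, 48.0 and 48.2 CPM in the WT pools and 133, 152 and 188 CPM in the KO pools (log2 fold change 1.50 with SE 0.16 and adjusted p = 2.04e-07), and Hoxa3, needed for the thymus to form, rose, with a log2 fold change of 1.48 (adjusted p = 3.32e-05).

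Of 9 genes of KAT7 complexes other than Kat7, 1 rose, 1 fell and 7 did not pass the test (median -0.16). Brpf1, the scaffold that steers KAT7 to histone H3, was at 60.5, 42.0 and 56.3 CPM in the WT pools and 25.9, 27.1 and 28.0 CPM in the KO pools (log2 fold change -0.97 with SE 0.14 and adjusted p = 1.69e-05), with no overlap. Jade2 rose, with a log2 fold change of 0.53 (adjusted p = 0.0115), a call lost in 4 of 11 alternatives, those fitted on cTEC alone or without WT pool 1, KO pool 4 or KO pool 5. Of 14 other histone acetyltransferase genes, 5 rose and 3 fell. Kat5, of the same MYST family, fell, with a log2 fold change of -0.82 and Kat8, also of that family, rose, with a log2 fold change of 0.44 (adjusted p = 0.00016 and 0.00431). Without WT pool 1, 1 of the 14 fell.

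Among 22 Polycomb genes, 6 rose and 5 fell. Rbbp4, Rbbp7 and Rnf2, histone binding and ubiquitin ligase subunits, rose, with log2 fold changes of 1.13, 0.90 and 0.91, and Epop and Jarid2, accessory proteins of the complex that methylates histone H3, fell, with log2 fold changes of -3.41 and -0.98 (adjusted p = 1.37e-06, 2.32e-06, 1.03e-05, 2.3e-07 and 2.55e-05). Of 18 Hox genes tested, out of 26 listed, 8 fell and 3 rose, or 3 fell where cTEC alone was fitted. Hoxb3 was at 3.35, 5.94 and 7.93 CPM in the WT pools and 0.264, 0.129 and 0.210 CPM in the KO pools (log2 fold change -4.77 with SE 0.62 and adjusted p = 3.47e-06) and Hoxa4 at 2.55, 4.62 and 4.47 CPM in the WT pools and 8.58, 14.6 and 10.3 CPM in the KO pools (log2 fold change 1.51 with SE 0.32 and adjusted p = 0.000622), so genes of separate clusters moved apart. Of 16 germline genes tested, 2 fell and none rose, and without WT pool 1, 2 were called higher. Of 20 imprinted genes tested, 9 fell and 5 rose, and the number that rose was 2 to 3 in 7 of 11 alternatives, among them those without WT pool 3, KO pool 4 or KO pool 5. Grb10, an adaptor that restrains growth factor receptors, was at 34.8, 43.2 and 42.0 CPM in the WT pools and 3.43, 3.37 and 3.94 CPM in the KO pools (log2 fold change -3.47 with SE 0.21 and adjusted p = 1.29e-10), and Peg3 and Ndn fell, with log2 fold changes of -3.78 and -2.66 (adjusted p = 4.76e-07 and 6.27e-08). Mest rose from 5.63 ± 1.16 to 19.6 ± 5.71 CPM (adjusted p = 7.55e-06). The genotypes did not overlap in Grb10, Peg3, Ndn or Mest.

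Immediate early and heat shock genes, which also respond to tissue digestion, were lower in 11 of 22 cases and higher in 1. Nr4a1 was at 261, 134 and 220.1 CPM in the WT pools and 37.0, 51.1 and 52.3 CPM in the KO pools (log2 fold change -2.13 with SE 0.27 and adjusted p = 1.94e-06), and the chaperone gene Dnajb1 fell from 2064 ± 142 to 865 ± 199.9 CPM (adjusted p = 2.44e-05). Ier3 was the member that rose, from 162, 158 and 171 to 392.2, 733 and 509 CPM (adjusted p = 1.19e-06). The summed level of the list was 29786 to 39560.4 CPM in WT and 20116 to 28929 CPM in KO. The part of handling in other results was not tested. Sterol synthesis genes rose in 8 of 20 cases and fell in 1, Msmo1 among the former with a log2 fold change of 1.03 (adjusted p = 1.29e-05), and genes of the unfolded protein response rose in 7 of 20 and fell in none. The number that fell was 2 to 3 in 5 of 11 alternatives for the sterol genes, and 1 in 6 of 11 for the unfolded protein response. Of 22 p53 targets and apoptosis genes, 5 rose and 4 fell, or 8 rose without WT pool 1. Pmaip1, or Noxa, fell from 145, 95.7 and 100.8 to 9.70, 7.57 and 13.04 CPM (adjusted p = 3.98e-10), while Sesn1 and Ccng1 rose, with log2 fold changes of 1.46 and 1.13 (adjusted p = 6.24e-08 and 4.07e-07). Of 21 interferon response genes, 6 rose and 5 fell.

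Genes were ranked by fold change among called genes with a mean of at least 5 CPM in 1 of the genotypes. Their KO and WT libraries also had not to overlap, so the separation of genotypes in these genes was set by the choice. Predicted genes, small RNA genes, pseudogenes, Y-linked genes and Xist were left out. Among the 12 most raised, Aldoc, a glycolytic aldolase, was at 9.31, 5.84 and 5.96 CPM in the WT pools and 116, 159 and 148 CPM in the KO pools (log2 fold change 4.34 with SE 0.22 and adjusted p = 2.45e-11). Rerg, a small GTPase, was at 0.655, 0.849 and 0.586 CPM in the WT pools and 13.9, 14.8 and 15.2 CPM in the KO pools (log2 fold change 4.37 with SE 0.38 and adjusted p = 1.79e-08). In both genes the KO libraries were close to each other. Others were Pth, Chga and Cnmd, described above, Dcpp2 and Dcpp3, which are near-identical paralogs whose reads cannot be assigned with certainty, and Mt3, Spink8, Ccdc121 and Msx3, with log2 fold changes of 4.08 (Msx3) to 4.83 (Mt3). These values rest in part on single libraries, and Mt3 was at 6.06 without WT pool 1, Ccdc121 at 6.88 without WT pool 3 and Spink8 at 3.87 without KO pool 5.

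Among the 12 most lowered genes, Brinp1 and Slitrk4, both best known from neurons, had no reads in any KO library. Brinp1 was at 7.06, 9.92 and 6.23 CPM in WT, which is at least 129-fold lower in KO when KO is set to 3 reads over its group (adjusted p = 3.98e-08). Slitrk4 was at 5.39, 6.10 and 5.22 CPM in WT, at least 92.4-fold lower in KO (adjusted p = 4.83e-08). Bpifa5, also without KO reads, was at 3.57, 0.106 and 20.1 CPM, so that WT pool 3 gave most of its level. Tas2r102, a bitter taste receptor of a family with similar members, had a WT to KO ratio of 547 (95% counting interval 97.7 to 21628), and Adamts3, a protease that processes procollagen, had one of 257 (95% counting interval 45.7 to 10185). Adcy8 had a ratio of 127 (95% counting interval 43.3 to 621), and Ngp one of 307 (95% counting interval 54.7 to 12168), with WT pool 2 giving most of its level. Saa1, Car6 and Prss2, proteins of liver, saliva and pancreas, fell, with log2 fold changes of -6.74, -6.67 and -6.40 (adjusted p = 2.77e-09, 5.44e-08 and 9.52e-08), with all KO libraries under 1 CPM. Ccl11 and Reg1 complete the 12. In Reg1, WT pool 1 was at 73.7 CPM and the other WT pools at 3.29 and 1.70 CPM. Its call was lost in the limma fit with mouse pool as a block (adjusted p = 0.0581).

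**Figure D5:**
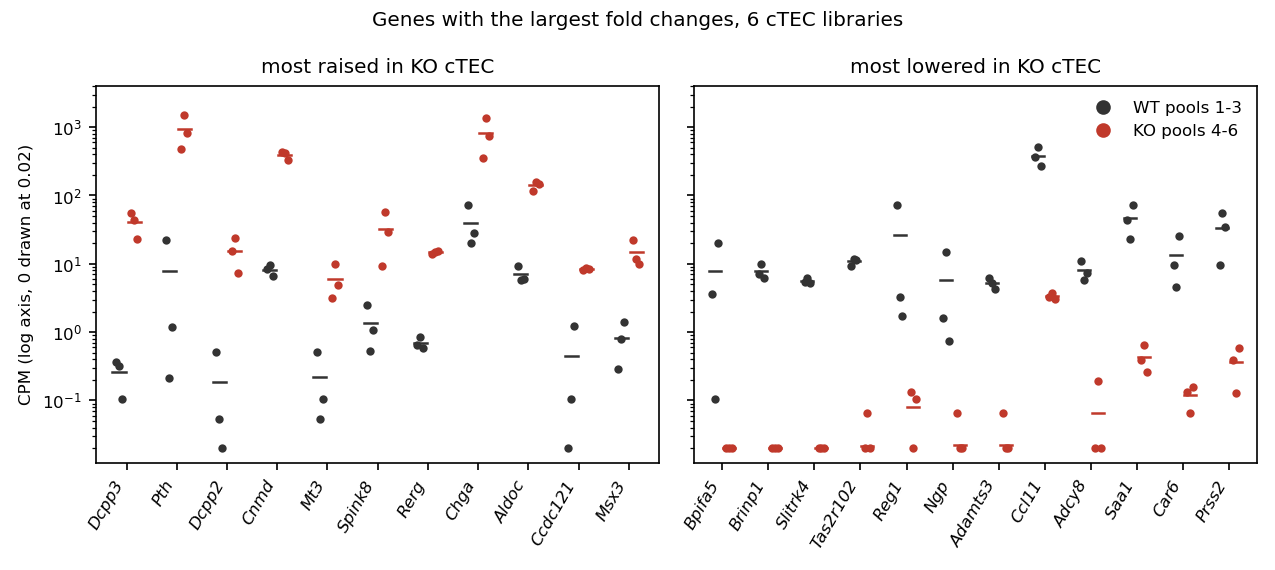
Level in CPM (log axis, with 0 drawn at 0.02) of genes among the 12 most raised (left) and of the 12 most lowered (right) in each cTEC library, WT in black and KO in red, with a line at the mean of 3 libraries. Cnmd and Ccl11 have tight groups far apart, while Pth, Bpifa5 and Reg1 are spread widely within a genotype.

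The promoter of Brinp1 is shown as that of a gene without KO reads. It lies at chr4:68954348-68954647, minus strand (RefSeq, GRCm38.p6) and holds 18 CG dinucleotides, in capitals, more than 52.2% of promoters hold.
Brinp1: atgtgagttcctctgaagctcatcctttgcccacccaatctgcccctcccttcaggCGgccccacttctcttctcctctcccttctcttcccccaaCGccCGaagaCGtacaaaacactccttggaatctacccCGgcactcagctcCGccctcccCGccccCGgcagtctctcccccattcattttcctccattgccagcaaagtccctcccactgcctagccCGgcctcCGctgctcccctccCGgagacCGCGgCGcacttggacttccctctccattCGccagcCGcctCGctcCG

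The genotype effect in cTEC differed from that in mTEChi in 6098 genes (31.5%, 13.2% higher in cTEC and 18.3% lower) and from that in mTEClo in 5032 (26%, 9.54% higher and 16.4% lower). In 981 genes it was higher than in both and in 2055 lower than in both. Of the genes higher in cTEC, 968 were also higher in both mTEC subsets, which is 22.4% of the cTEC genes and 54.8% of the 1768 genes higher in both mTEC subsets. Of the genes lower in cTEC, 892 were lower in both, 17.3% of the cTEC genes and 68.9% of the 1295 genes lower in both mTEC subsets. Across the 19364 genes, the cTEC effect had a Pearson r of 0.378 with the mTEChi effect and 0.444 with the mTEClo effect, a description over genes that share pools of mice.

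Genes chosen, after their values were seen, for moving the same way in all subsets include the nicotinic receptor gene Chrna9, the endothelin receptor gene Ednrb and the BMP antagonist gene Chrdl1. Chrna9 was at 8.95, 7.32 and 3.30 CPM in the WT pools and 79.9, 79.4 and 67.7 CPM in the KO pools in cTEC, with log2 fold changes of 3.55 in cTEC, 3.28 in mTEChi and 3.89 in mTEClo. For Ednrb these were 3.55, 2.55 and 3.94, and for Chrdl1 2.60, 2.99 and 3.17. Lowered in the same way were Gulp1, an adaptor for engulfment (-5.12, -4.23 and -5.60), Gpc5, a glypican (-4.07, -3.42 and -4.66), and the zinc finger gene Zfp970 (-4.09, -3.51 and -4.01). They are a description, since the values chose them.

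Genes called higher in KO cTEC were more abundant and shorter than genes called lower. Their median level over the 6 libraries was 47.6 CPM and their median length 2239 bases, against 9.49 CPM and 3008.5 bases for genes called lower, and 7.86 CPM and 2462 bases for the genes not called. Genes with their highest mean in cTEC, over both genotypes, were called higher in 31.7% of 6501 cases and lower in 20.1%. Genes with their highest mean in mTEChi were called higher in 16.5% of 8308 cases and lower in 29.6%, and those highest in mTEClo in 19.5% and 30.8% of 4555. Because the means include the KO libraries, they are not independent of the calls.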

How the data were processed

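The deposited table held whole-number counts per gene, made by the authors with featureCounts on mm10, per the submitters' processing notes. The aligner, versions and counting settings are not given in the sources used here. Per the labels' protocols, RNA of sorted, pooled cells was amplified with SMART-Seq v4 and sequenced as paired ends of 75 bases. That kit does not mark strand, so antisense pairs cannot be separated. Genes were tested with edgeR 4.0.16 (R 4.3.3, filterByExpr with a minimum count of 10, TMM, quasi-likelihood test, Benjamini-Hochberg adjustment over 19364 genes) in 1 fit of 18 libraries with 12 residual degrees of freedom. Fold changes are KO against WT, and a gene is called at an adjusted p below 0.05. CPM are counts scaled by each library's total and its TMM factor.

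The members and lists were chosen with earlier results of these data known. Named genes are Kat7, all members of the cortical, MHC class II and niche lists, up to 5 members with the smallest adjusted p of every other list, the 12 most raised and 12 most lowered genes, and the 6 most raised and 6 most lowered relative to both mTEC subsets. A few genes that these rules take are not reported here. Any other named gene was chosen after its values were seen. Alternatives were RLE scaling, no filter, DESeq2 1.42.0, a fit of cTEC alone, a mouse pool block and leaving out each library. The main filter used all 18 libraries. The fit of cTEC alone filtered on its 6 libraries and tested 16357 genes. Its list counts therefore leave out members that it did not test, and lost calls and removed genes are not separated. The block was fitted with limma 3.58.1 (voom) for the cTEC comparison and as pool terms in edgeR for the differences between subsets. In simulated data on 18638 genes, the cTEC comparison called 79.5% of 200 changed genes, with 1.85% of calls false. Only those 200 genes changed there, evenly up and down, and libraries shared no pools. In the data 49% of genes were called, so these rates do not give the share of false calls in the data. A library is a pool of mice, and p-values measure the spread between libraries of a group, estimated over all groups of the fit. The main fit treated the 18 libraries as independent. By the labels the subsets share pools, and deviations from the group means of libraries of 1 pool correlated by -0.000944 to 0.109. Promoters (RefSeq, GRCm38.p6) were found for 14424 of the 19364 genes (74.5%), under 80%, so a comparison of promoter features of called genes is void and was not made.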

Additional observations from a re-analysis of the deposited data

Results flagged for a closer look

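The genotype effect differed between cTEC and a medullary subset, by the test of the difference itself, in many genes. Against mTEChi, it was higher in cTEC for 2562 genes and lower for 3536, and against mTEClo it was higher for 1848 and lower for 3184 (edgeR's quasi-likelihood test of the interaction, adjusted over 19364 genes).

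Differences of the log2 effects are given first against mTEChi and then against mTEClo. The effect was higher in cTEC for the parathyroid hormone gene Pth (7.21 and 3.44), whose difference from mTEClo was lost with DESeq2 (adjusted p = 0.0754) and without KO pool 5 (0.0601). It was also higher for the GTPase gene Rerg (4.79 and 3.43), the calcium-binding protein gene Efhd1 (4.78 and 3.50), and BC051019 (3.85 and 2.82). Ptprcap, which codes for a protein bound to CD45, differed by 3.22 and 2.98, and its difference from mTEClo was lost without KO pool 4 (adjusted p = 0.0747). Thymocyte genes were higher in the KO cTEC libraries, and their part in the Ptprcap value was not tested.

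The effect was lower in cTEC for Myog, or myogenin (-7.28 and -4.74), the adenylyl cyclase gene Adcy8 (-5.96 and -4.85) and the tuft cell gene Avil (-5.95 and -4.94). It was lower as well for the bitter taste receptor gene Tas2r102 (-5.93 and -6.22), the transcription factor gene Prox1 (-5.36 and -5.04) and Cdhr2, a cadherin of the brush border (-4.72 and -4.99).

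Leaving out 1 library moved several of these differences by over 1.5 times as a fold, some to larger and some to smaller values. Without WT pool 1, Pth was at 10.60 and 6.85 and Efhd1 at 5.48 and 4.21. Without WT pool 3, BC051019 was at 5.14 and 4.13, and without WT pool 2, Ptprcap was at 3.92 and 3.68. Without KO pool 5, Adcy8 was at -8.78 and -7.66, Tas2r102 at -7.52 and -7.80 and Cdhr2 at -5.45 and -5.72. Other omissions made the difference smaller. Pth was at 6.58 and 2.83 without WT pool 2, and Ptprcap at 2.62 and 2.39 without WT pool 3. Adcy8 was at -5.36 and -4.24 without KO pool 6.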

How the results depend on the processing

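All 92 values of the counts of calls and of the detected genes under the alternatives stayed within 1.5 times the value reported or kept their direction. Genes higher in KO cTEC numbered 3747 with RLE scaling, 4091 without a filter, 3837 with DESeq2, 3168 where only the cTEC libraries were fitted, and 3680 to 4395 when each library was left out. Genes lower numbered 5624, 5326, 5703, 3956 and 4443 to 5192 in the same order. The genes tested numbered 16357 where only the cTEC libraries were fitted and 24856 without a filter. In a limma fit with mouse pool as a block, which subsets of 1 pool share, 4934 genes were higher and 4888 lower. Higher calls were then 50.2% of all calls in place of 45.5%. That fit changed both the test and the block, and the part of each was not tested. Pool terms in the edgeR fit gave 2945 genes higher and 3691 lower relative to mTEChi, and 2270 and 3383 relative to mTEClo. Of 4850 other values, 4691 counted as unchanged, 92 moved, 47 lost and 18 gained a call, and 2 turned. For a gene, unchanged meant the same side of the threshold, and for a called gene also the same direction. A gene not called in either fit counted as unchanged even where its sign changed, as for Bmp4 (-0.12 to 0.51). List counts within 1.5 times and list medians within a standard deviation of the members counted as unchanged, also where a median near 0 changed sign. The median of the pharyngeal factors ranged from -0.17 to 0.064 when each library was left out, turning without WT pool 2. That of the KAT7 partners ranged from -0.19 to 0.040, turning without WT pool 3. The cause was not tested. The limma fit with the block lost the calls of Reg1 (adjusted p = 0.0581), Dppa3 (0.0602), Erg (0.112) and Sox18 (0.287), and of no other of the single genes recomputed. With 3 pools per genotype, an exact permutation test cannot go below p = 0.1. Genes with few reads are limited by depth, since 3 reads over a group set the lower bound.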

Other observations

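Ccl11 lies in a cluster of monocyte and eosinophil attractants on chromosome 11, which was examined after the values were seen. Within 100 kb on either side of Ccl11 (chr11:82057832-82062955, mm10) lie Ccl2 (chr11:82035577-82037452) and Ccl7 (chr11:82045712-82047525), described above, and also Ccl12, Ccl8 and Asic2, and no other gene that was tested. Ccl8 (chr11:82115185-82116799), an attractant of monocytes, was at 15.1, 39.0 and 24.6 CPM in WT pools 1 to 3 and 1.39, 0.583 and 0.158 CPM in KO pools 4 to 6 (log2 fold change -5.26 with SE 0.49 and adjusted p = 3.8e-08 by edgeR's quasi-likelihood test), with all KO libraries under all WT libraries. Ccl12 had few reads, most of them in WT pool 1, and a WT to KO ratio of 17.4 (95% counting interval 2.74 to 724). Reads of the neighbouring family members may be shared between them. Asic2, an ion channel gene that overlaps the window, did not pass the test (log2 fold change -0.92, adjusted p = 0.195).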
